A study of Mus musculus with 26 samples.

Results

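Hox genes were measured in the epididymal fat of male C57BL/6J mice, and the members described here are the rows of both gene count tables whose symbol is Hoxa, Hoxb, Hoxc or Hoxd followed only by a number. This gave 38 genes of the 39017 in the tables, of which 11 are Hoxa, 10 Hoxb, 9 Hoxc and 8 Hoxd genes. One further symbol of the family, the 39th, is not analysed here. The mice were 9 to 10 weeks old at the start. LFD mice ate a diet with 10% of its energy from fat for 12 weeks, HFD mice a diet with 60%, and SW mice were switched, eating the 60% diet for 9 weeks and the 10% diet for the last 3 weeks. Collagenase digestion split each fat pad into floating adipocytes and the stromal vascular cells (SVC), a pellet of progenitors, immune cells, vessel cells and blood cells. RNA with a poly(A) tail was sequenced from 9 adipocyte libraries, 3 per diet, and 6 SVC libraries, with 1 of LFD, 2 of HFD and 3 of SW mice. Libraries are named by the numbers in the column headings, which are in no label, and no source says which mouse gave which library.

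Hox genes encode homeodomain transcription factors that give cells an address along the body axis. They lie in clusters, and the number of a gene is its paralog group, which orders the genes along the chromosome and follows the head to tail order of their expression in the embryo. Adult fat depots keep sets of Hox genes that differ between depots and have been used as marks of depot origin, in progenitors and in adipocytes grown from them. In the GRCm38 build the Hoxa genes lay on chromosome 6, the Hoxb genes on chromosome 11 between 96194316 and 96368256, the Hoxc genes on chromosome 15 between 102921103 and 103036852, and the Hoxd genes on chromosome 2 between 74668310 and 74765142.

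The libraries held between 5781902 and 23725647 counts, so that 1 count was worth between 0.173 and 0.0421 CPM (counts scaled to the library total). Replicates of a group differed by 12.78 to 376.14 times counting noise as chi-square per degree of freedom, with the largest value between the SVC libraries HFD 212 and HFD 411. Mitochondrial genes took 33.5% of the counts of HFD 411 and 4.36% to 9.54% in the other SVC libraries. The labelled fractions held their markers: 10 adipocyte markers summed to 4179 to 16150 CPM in adipocyte libraries and to 382 to 978 CPM in SVC. The adipocyte fraction was not free of other cells, since the 10 macrophage markers found reached 673 to 1128 CPM in LFD, 7863 to 8971 CPM in HFD and 6020 to 9159 CPM in SW adipocyte libraries.

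Epididymal adipocytes had most of their Hox transcripts from the middle of the clusters. To compare genes, counts were divided by transcript length and scaled to the same total in every library (the length-scaled level, or TPM), and the means of the diet groups were averaged. Of the 38 genes, 25 reached a level of 1 in adipocytes and 20 did so in SVC. Hoxc8 had the highest level in adipocytes, 52.9, followed by Hoxc6 at 23.4, Hoxd8 at 20.1, Hoxa7 at 17.7 and Hoxb7 at 14.9. The next were Hoxc5 (8.36), Hoxc4 (7.91), Hoxa5 (7.39), Hoxd9 (5.97) and Hoxb8 (5.07). In SVC the order began with Hoxc6 at 16.3, Hoxa7 at 11.2, Hoxc8 at 10.8 and Hoxc4 at 10.5, and the 3 highest outside the adipocyte list were Hoxc9 (5.06), Hoxb5 (3.97) and Hoxa4 (2.85). Another choice of transcript length kept 9 of the 10 highest adipocyte genes.

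Summed by paralog number, groups 4 to 8 held 83.7% of the Hox level of adipocytes and 76.5% of that of SVC. Groups 9 and 10, which pattern the lower trunk and limb, held 10.3% and 14.8%. Groups 1 to 3, the hindbrain end, held 5.68% and 8.06%, and groups 11 to 13, which pattern the limb tips, the urogenital tract and the tail, held 0.33% and 0.68%. By cluster, the Hoxc genes gave 48.6% of the adipocyte level and 46.6% of the SVC level, the Hoxa genes 19.1% and 24.1%, the Hoxb genes 17.9% and 20.3%, and the Hoxd genes 14.4% and 9.07%. These shares are descriptions, with the diet groups weighted equally.

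**Figure D1:**
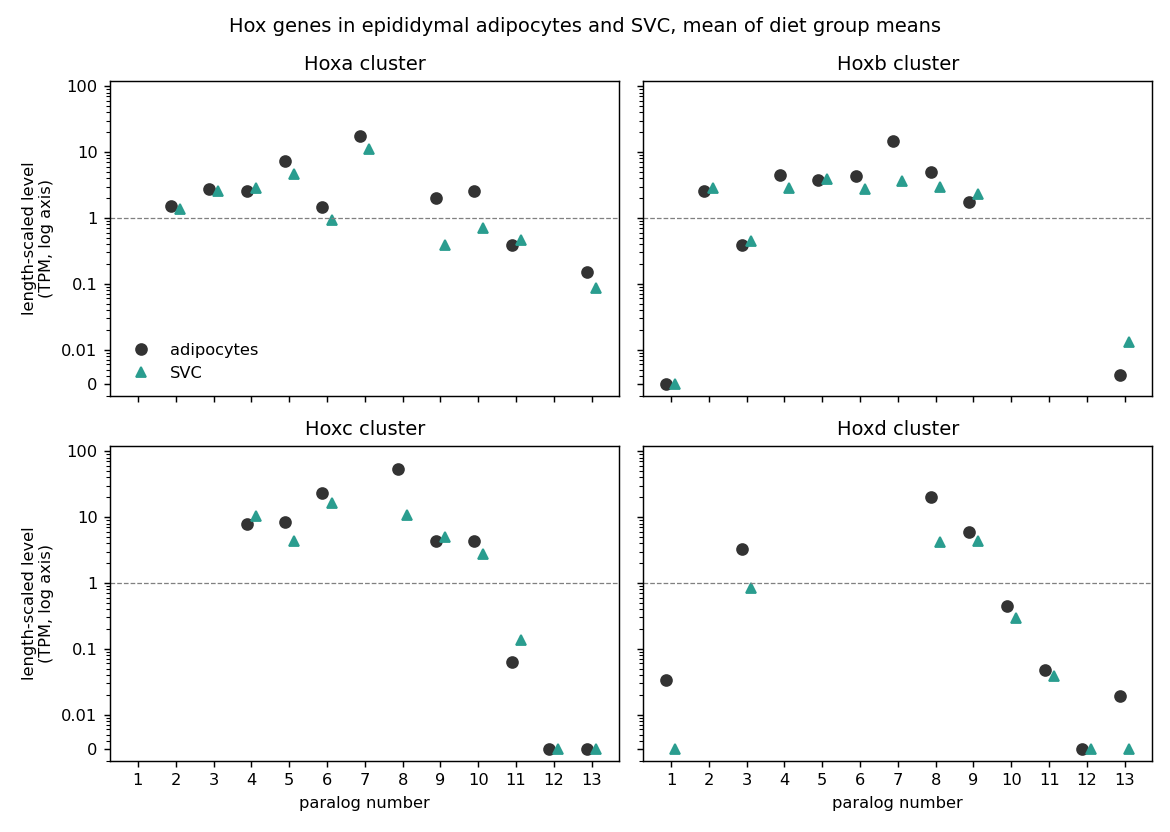
Length-scaled level (TPM, log axis) of the Hox genes reported here by paralog number, 1 panel per cluster, in adipocytes (circles) and SVC (triangles), as the mean of the diet group means. A value of 0 is drawn at the lower edge and the dashed line marks a level of 1. In the Hoxc and Hoxd clusters the level fell from paralog 8 to paralog 12, from 52.9 for Hoxc8 and 20.1 for Hoxd8 in adipocytes to 0 for Hoxc12 and Hoxd12.

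Genes at the ends of the clusters were at or near 0. Hoxb1, Hoxc12, Hoxc13 and Hoxd12 were listed at 0 in all 15 libraries, and a 0 allows up to 3 counts of a library. Hoxb13 had 1 count over all adipocyte libraries and 2 over all SVC libraries. Hoxd13 had 3 counts and Hoxd1 6 in adipocytes, and both had none in SVC. Hoxd11 gave 7 and 3 counts, Hoxc11 gave 9 and 10, and Hoxa13 gave 19 and 10. Hoxd10 (54 and 18 counts) and Hoxa11 (40 and 35 counts) were seen in 8 of the 9 adipocyte libraries and in all 6 of SVC. The filter on low counts left 26 members to test in adipocytes, 27 in SVC, where Hoxa11 joined them, and 28 with both fractions together, where Hoxa11 and Hoxd10 did. A member that passes only through a group where it is high had to differ, so the 12 members below the filter in adipocytes have values only.

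The Hoxd cluster shows the step between used and unused genes. RefSeq promoter windows of 300 bases, 250 before and 50 after the start in GRCm38.p6, were at hand for 21 of the 38 members. The windows of Hoxd8, Hoxd9 and Hoxd12 follow on the plus strand, 5′ to 3′, since Hoxd8 was the highest Hoxd gene, Hoxd9 had the lowest fold change on HFD and Hoxd12, in the same cluster, had no count. Capitals mark CpG pairs, the base step at which mammalian DNA is methylated.
Hoxd8, chr2:74704365-74704664: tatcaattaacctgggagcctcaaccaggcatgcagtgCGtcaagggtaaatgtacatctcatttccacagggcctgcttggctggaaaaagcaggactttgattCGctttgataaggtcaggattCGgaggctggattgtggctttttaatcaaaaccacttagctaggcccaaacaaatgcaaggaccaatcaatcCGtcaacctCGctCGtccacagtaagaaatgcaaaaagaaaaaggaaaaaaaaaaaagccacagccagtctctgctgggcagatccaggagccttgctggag
Hoxd9, chr2:74697513-74697812: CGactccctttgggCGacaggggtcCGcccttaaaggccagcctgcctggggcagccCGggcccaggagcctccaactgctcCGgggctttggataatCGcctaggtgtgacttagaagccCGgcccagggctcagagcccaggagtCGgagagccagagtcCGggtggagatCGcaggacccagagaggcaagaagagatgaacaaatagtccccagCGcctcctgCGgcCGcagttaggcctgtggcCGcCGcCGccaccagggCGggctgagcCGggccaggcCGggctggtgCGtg
Hoxd12, chr2:74674763-74675062: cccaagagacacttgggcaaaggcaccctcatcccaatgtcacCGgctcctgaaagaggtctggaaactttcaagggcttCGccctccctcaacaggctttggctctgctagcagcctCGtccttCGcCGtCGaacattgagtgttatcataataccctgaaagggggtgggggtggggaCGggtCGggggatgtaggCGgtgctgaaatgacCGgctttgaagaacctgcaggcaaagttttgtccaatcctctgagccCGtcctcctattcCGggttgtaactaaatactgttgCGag
The 21 members had 23 windows, since a gene can have more than 1 start. The window of Hoxd8 held 6 CpG pairs, that of Hoxd9 held 20 and that of Hoxd12 held 13. Over 14 windows of members tested in adipocytes the median was 13.5 (range 4 to 29), and over 9 windows of members not tested it was 22 (range 4 to 45). All 32851 windows of the table had a median of 7. The windows of tested members did not hold more CpG pairs than those of members not tested, as medians, and methylation was not measured.

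HFD adipocytes had lower levels of nearly every Hox gene that could be tested. Against LFD adipocytes, 24 of 26 members were lower and none was higher at an adjusted p under 0.05 (edgeR's quasi-likelihood test, Benjamini-Hochberg over 14461 genes), where 25.0% of all genes were lower and 26.5% higher. The median log2 fold change of the 26 members was -1.52, against -0.03 over all genes tested. The falls ran from 2.06-fold for Hoxb4 to 4.65-fold for Hoxd9. In 24 members every HFD library lay below every LFD library, and 30.5% of all genes did so. Summed over the 38 genes, the length-scaled level was 311 to 344 in LFD libraries, 113 to 131 in HFD libraries and 144 to 211 in SW libraries.

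Hoxc8, a gene of the middle trunk and the most abundant Hox transcript of these adipocytes, had 86.9, 99.1 and 111 CPM in the LFD libraries, 24.3, 35.7 and 31.3 CPM in the HFD libraries, and 68.9, 63.5 and 68.4 CPM in the SW libraries. Its diet groups did not overlap, and SW lay between the others. The log2 fold change from LFD to HFD was -1.70 ± 0.15 (SE, adjusted p 2.31e-05, edgeR). From HFD to SW it was 1.13 ± 0.15 (adjusted p 0.00316, edgeR), and SW against LFD was -0.56 ± 0.15 (adjusted p 0.026, edgeR).

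Hoxd9 had the lowest log2 fold change on HFD, less than 1 SE below that of Hoxa7. It had 9.83, 12.3 and 13.6 CPM in LFD libraries, 3.16, 2.46 and 2.15 CPM in HFD libraries, and 6.41, 7.03 and 6.87 CPM in SW libraries. No HFD library came near those of LFD or SW mice. The log2 fold change was -2.22 ± 0.20 on HFD (adjusted p 2.29e-05, edgeR) and 1.40 ± 0.20 from HFD to SW (adjusted p 0.00369, edgeR), the highest value after the switch. With GC correction Hoxa7 had the lower value on HFD (-2.04 against -1.86 for Hoxd9) and Hoxc8 the higher one after the switch (1.25 against 1.11). Hoxd8, the neighbour of Hoxd9, had 46.5, 51.1 and 44.6 CPM on LFD, 17.8, 14.2 and 13.0 CPM on HFD, and 25.0, 25.6 and 24.8 CPM after the switch, with changes of -1.67 ± 0.13 and 0.75 ± 0.13. Hoxd3, the third tested gene of the cluster, changed by -1.51 ± 0.22 on HFD.

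Among the Hoxa genes, Hoxa7 fell most. It had 25.5, 35.3 and 41.7 CPM on LFD, 8.49, 7.51 and 8.18 CPM on HFD, and 18.7, 18.4 and 16.2 CPM in SW libraries. The SW libraries stood between the others without overlap. The log2 fold change was -2.09 ± 0.17 on HFD (adjusted p 1.64e-05, edgeR) and 1.14 ± 0.17 after the switch. Hoxa5, a regulator of lung and neck skeleton formation often used as a mark of visceral fat, had 11.4, 10.6 and 10.0 CPM on LFD, 4.36, 4.09 and 3.93 CPM on HFD, and 6.41, 8.95 and 8.59 CPM after the switch. SW and HFD libraries of Hoxa5 did not overlap, and the changes were -1.37 ± 0.17 and 0.96 ± 0.17. Hoxa2, Hoxa3, Hoxa4, Hoxa9 and Hoxa10 also fell on HFD, with log2 fold changes from -1.55 to -1.10.

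The Hoxb genes that fell were Hoxb2 and Hoxb4 to Hoxb9, by 1.04 to 1.82 on the log2 scale. Hoxb8 fell most, from 11.3, 12.7 and 13.7 CPM in LFD to 3.76, 3.55 and 3.40 CPM in HFD libraries, with 5.26, 6.01 and 6.37 CPM in SW libraries. The change was -1.82 ± 0.16 on HFD (adjusted p 2.02e-05, edgeR) and 0.73 ± 0.16 after the switch. Hoxb7, the highest Hoxb gene, had 14.3, 20.4 and 16.6 CPM on LFD, 7.89, 4.05 and 5.10 CPM on HFD, and 9.78, 8.47 and 8.73 CPM after the switch. For Hoxb7 the fall of 1.62 ± 0.24 passed the test and the difference between SW and HFD, 0.68 ± 0.24, did not (adjusted p 0.0519, edgeR).

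All 6 tested Hoxc genes fell on HFD, by 1.32 to 1.71 on the log2 scale. Hoxc6, the second gene by level, had 30.1, 27.9 and 36.3 CPM on LFD, 8.79, 12.8 and 10.2 CPM on HFD, and 19.0, 16.5 and 21.7 CPM after the switch. Hoxc5 had 15.5, 20.6 and 25.7 CPM on LFD, 6.16, 9.18 and 5.90 CPM on HFD, and 12.4, 12.0 and 14.2 CPM after the switch. Neither gene's HFD libraries overlapped with those of another diet. Hoxc4 had 10.9, 14.6 and 12.7 CPM on LFD, 3.98, 4.59 and 4.92 CPM on HFD, and 7.89, 10.6 and 13.0 CPM after the switch, so that SW and LFD libraries overlapped. Hoxc9 and Hoxc10 changed by -1.32 ± 0.27 and -1.71 ± 0.26 on HFD.

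**Figure D2:**
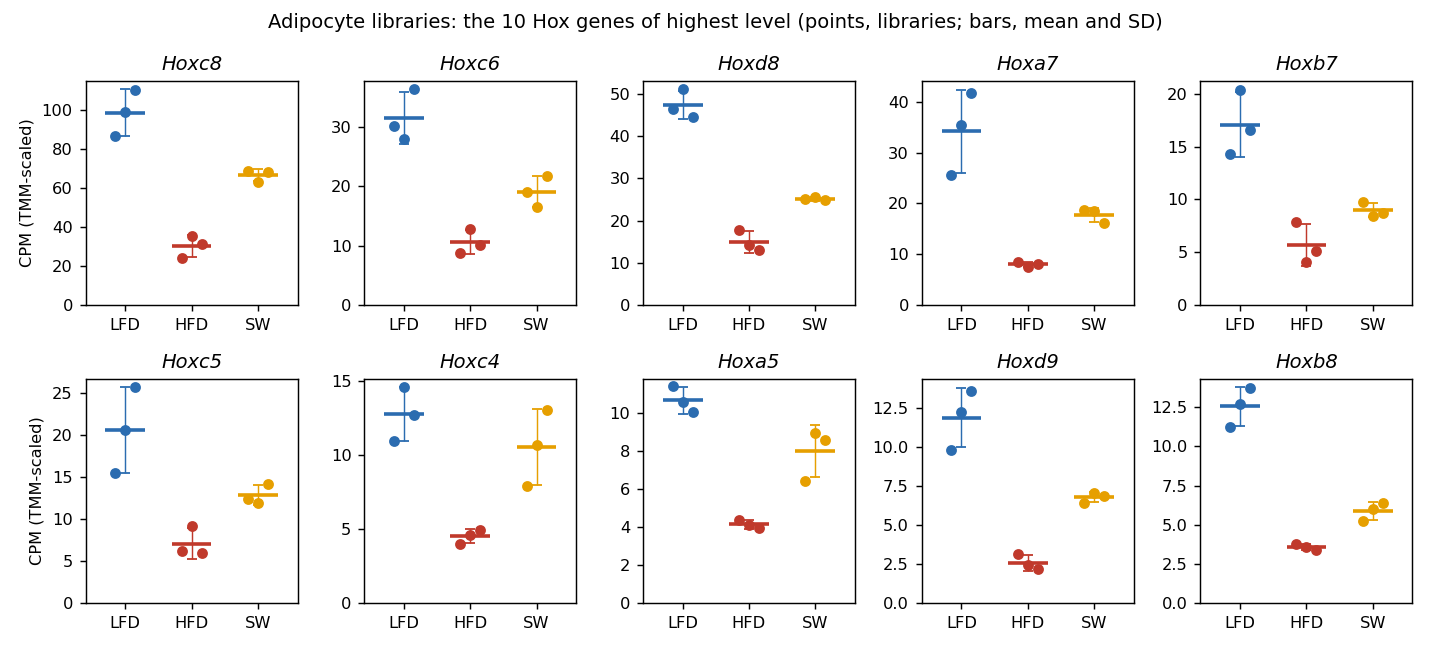
CPM scaled with TMM factors in each of the 9 adipocyte libraries for the 10 Hox genes of highest level, by diet (LFD, HFD, SW), with points for libraries, long bars for means and error bars for SD (n = 3). In every panel the 3 HFD libraries lie below the 3 LFD libraries, as for Hoxc8 with 24.3 to 35.7 CPM against 86.9 to 111 CPM.

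The 2 members that did not pass were Hoxa6 and Hoxb3, both at low counts. Hoxa6 had 2, 7 and 6 counts in LFD libraries, 15, 24 and 23 in HFD libraries, and 0, 5 and 13 in SW libraries. All HFD libraries of Hoxa6 were above those of LFD mice in CPM, as in 32.1% of all genes, and also above those of SW mice, and the log2 fold change of 1.15 ± 0.69 missed the threshold (adjusted p 0.19, edgeR). Hoxa6 passed the filter on low counts only through the HFD libraries, so that calls of it under other settings are not read as a difference. Hoxb3 had 0.952, 0.619 and 0.659 CPM on LFD and 0.826, 0.626 and 0.715 CPM on HFD, so the groups overlapped (log2 fold change -0.00 ± 0.54, adjusted p 0.999, edgeR).

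The switch back to LFD raised part of the members. Against HFD, 12 of 26 were higher in SW adipocytes and none was lower, where 15.6% of all genes were higher and 15.9% lower. The median log2 fold change was 0.69, against 0.01 for all genes. The 12 were Hoxa5, Hoxa7, Hoxb4, Hoxb5, Hoxb8, Hoxc4, Hoxc5, Hoxc6, Hoxc8, Hoxc9, Hoxd8 and Hoxd9, of which 10 belong to paralog groups 4 to 8, and 5 of the 6 tested Hoxc genes were among them. None of the 6 tested members of groups 1 to 3 passed. Hoxa3 had 0.841, 2.88 and 3.43 CPM in SW and 2.63, 1.96 and 2.82 CPM in HFD libraries (log2 fold change -0.00 ± 0.41), and Hoxb2 and Hoxa9 had changes of 0.03 ± 0.30 and 0.06 ± 0.45. The lowest value was that of Hoxa6, -1.25 ± 0.66 (adjusted p 0.169, edgeR). In 16 members every SW library lay above every HFD library and in 1, Hoxa6, below, where 23.3% and 25.2% of all genes did so. Without library HFD 403, 7 of 27 members were higher at the adjusted threshold, where 627 of 14757 genes were higher.

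SW adipocytes had not regained the LFD level for many of these genes. Against LFD, 14 of 26 members were lower and none was higher, where 6.18% of all genes were lower and 10.9% higher, and the median was -0.84. The largest fall was that of Hoxa3, with 7.77, 6.19 and 5.41 CPM in LFD libraries and a log2 fold change of -1.39 ± 0.39 (adjusted p 0.0372, edgeR). No member had a fitted difference above 0, and the one nearest to it was Hoxa6 at -0.10 ± 0.79. In 20 members every SW library lay below every LFD library, and 17.5% of all genes did so. The number of members lower at the adjusted threshold was 6 without LFD 405, 8 without LFD 406 and 5 without SW 408. In these fits 509 of 14739, 570 of 14878 and 571 of 14730 genes were lower.

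These contrasts share libraries, so their values are set side by side. Of the 24 members lower on HFD, 7 were both higher in SW than in HFD and lower in SW than in LFD: Hoxa7, Hoxb5, Hoxb8, Hoxc6, Hoxc8, Hoxd8 and Hoxd9. Another 5 (Hoxa5, Hoxb4, Hoxc4, Hoxc5, Hoxc9) passed only against HFD, and 7 (Hoxa3, Hoxa10, Hoxb2, Hoxb6, Hoxb7, Hoxc10, Hoxd3) only against LFD. Others, among them Hoxa2, Hoxa4, Hoxa9 and Hoxb9, passed the test in neither comparison of SW adipocytes, although each of these 4 had SW libraries that lay wholly apart from those of at least 1 other diet. All SW libraries lay between all HFD and all LFD libraries for 13 of the 26 members, and the SW mean lay between the other means for 23. The share of all genes with these patterns was not counted. The counts of this paragraph therefore describe the members only and are not read as particular to them.

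**Figure D3:**
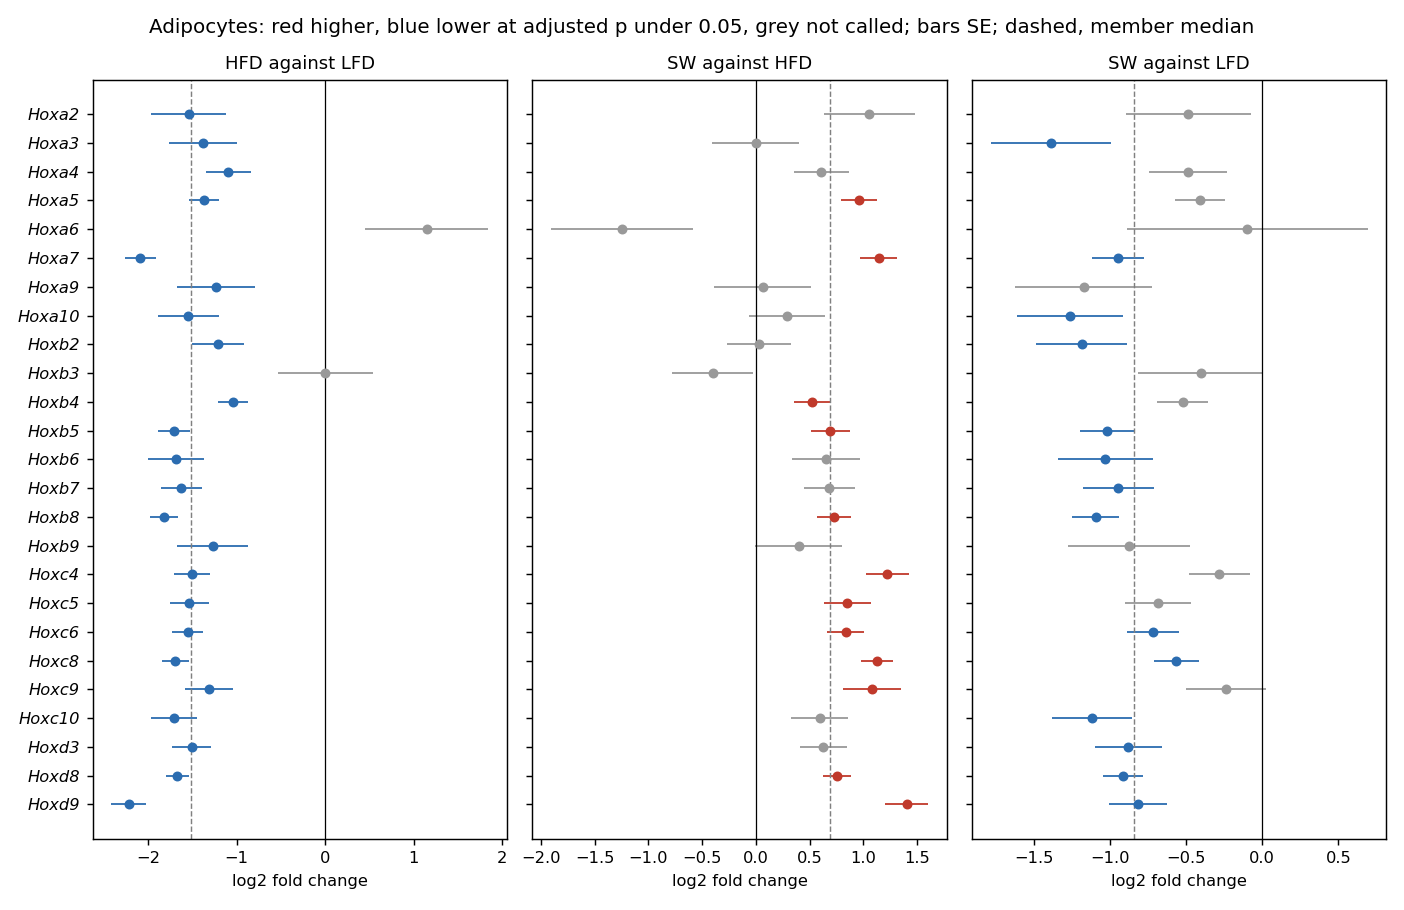
Log2 fold changes (x axis) of the Hox genes reported here, in adipocytes, for HFD against LFD, SW against HFD and SW against LFD, with bars for the SE, colours for calls at an adjusted p under 0.05 (edgeR) and a dashed line at the median of all 26 tested members. The medians are -1.52, 0.69 and -0.84, and Hoxa6 and Hoxb3 are the only tested members not called lower on HFD.

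Other cell types moved with diet in the same libraries. On HFD all 10 macrophage markers were higher (median log2 fold change 2.95) and 5 of 9 markers of progenitors and fibroblasts were higher (1.33), while 8 of 10 adipocyte markers were lower (-0.94), as were 5 of 6 mesothelial markers (-2.34), 5 of 7 endothelial markers (-0.88), 4 of 6 epithelial markers (-3.59) and 5 of 5 red blood cell markers (-1.84). The mesothelial markers, which are genes of the membrane that covers the fat pad, summed to 67.4 to 125 CPM in LFD, 8.06 to 29.4 CPM in HFD and 19.0 to 35.3 CPM in SW adipocyte libraries. From HFD to SW, 4 of 10 adipocyte markers (median 0.57), 4 of 5 red blood cell markers (1.15) and 4 of 4 tested testis markers (4.32) were higher, while 3 of 10 macrophage markers (-0.41) and 3 of 9 progenitor and fibroblast markers (-0.58) were lower. The testis markers summed to 0.251 to 1.39 CPM in HFD and 10.8 to 18.9 CPM in SW adipocyte libraries. The part of these cells in the Hox values was not tested. In bulk RNA, fewer cells of a type and less RNA per cell cannot be told apart.

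The fall of the Hox genes was smaller when libraries were scaled to the adipocyte markers. As given above, 8 of these 10 were themselves lower on HFD. With the 10 adipocyte markers as the reference, the median of the members was -0.25 for HFD against LFD, while that of all genes moved to 1.26. Hoxa7 (-0.77 ± 0.32) and Hoxd9 (-0.90 ± 0.38) were then lower, both with adjusted p 0.0294 (edgeR), and 23 members did not pass. The remaining one, Hoxa6, was called higher, which is not read as a difference for the reason given above. On this scale 1.82% of all genes were lower and 72.2% higher. SW against HFD then had 1 call, Hoxa6 again, where 44.3% of all genes were lower, and SW against LFD had none of the members at the adjusted threshold and 1 at an unadjusted p under 0.05 (edgeR), where 19.8% of all genes were higher and 0.463% lower at the adjusted threshold and 37.4% had an unadjusted p under 0.05. Relative to the markers, then, most Hox genes did not pass in either direction, and relative to total RNA nearly all were lower. How much of the fall came with the share of adipocyte RNA was not tested.

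**Figure D4:**
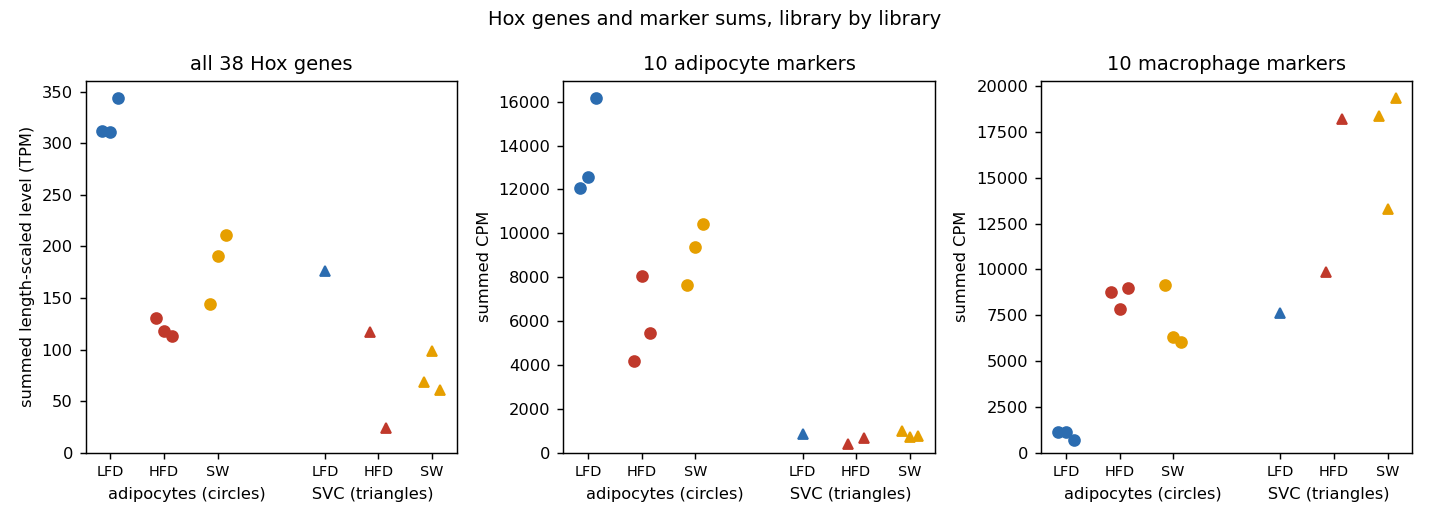
Sums per library over the 38 Hox genes (length-scaled level, TPM), the 10 adipocyte markers (CPM) and the 10 macrophage markers (CPM), by diet, with circles for adipocyte and triangles for SVC libraries. In adipocytes the Hox sum and the adipocyte marker sum were highest on LFD (311 to 344 and 12080 to 16150) and the macrophage sum was lowest there (673 to 1128).

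Genes that work with Hox proteins did not follow them as a group. In the same comparison of HFD with LFD adipocytes, 25.0% of all genes were lower and 26.5% higher. Of 8 tested TALE cofactors, the Pbx, Meis and Prep proteins that bind DNA beside Hox proteins, Meis1 was lower on HFD (-1.17 ± 0.20), Pknox2 was higher (1.26 ± 0.31) and 6 did not pass. Among 8 tested developmental factors that differ between fat depots, Nr2f2 (-1.81 ± 0.17), Shox2 (-1.31 ± 0.38), Irx3 (-0.94 ± 0.25) and Tcf21 (-0.70 ± 0.19) were lower and none was higher. The Polycomb proteins, which keep silent Hox genes closed, split into 4 higher and 7 lower of 16, the 4 being near the share of all genes. The methyltransferase Ezh2 was higher (1.09 ± 0.14) and the chromodomain genes Cbx7 and Cbx6 were lower (-1.23 ± 0.17 and -1.11 ± 0.13). Of 11 genes of the MLL and trithorax group, which keep Hox genes active, Dot1l (1.05 ± 0.13), Rbbp5 (0.76 ± 0.13) and Psip1 (0.40 ± 0.15) were higher and none was lower. A count of 3 higher of 11 was also near the share of all genes. Hoxb3os, a non-coding gene antisense to Hoxb2 and Hoxb3, was lower (-1.71 ± 0.20).

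In SVC the Hox genes differed widely between the 2 HFD libraries. The summed length-scaled level was 176 in the LFD library, 117 in HFD 212, 23.7 in HFD 411, and 68.7, 98.2 and 60.7 in the SW libraries. Between SW and HFD, 2 of 27 members were higher and none was lower (edgeR over 16319 genes), where 5.71% of all genes were higher and 11.7% lower. The median of the members was 0.29, against 0.03 for all genes. Hoxd9 had 1.80 and 1.59 CPM in the HFD libraries and 4.84, 4.92 and 6.35 CPM in the SW libraries (log2 fold change 1.66 ± 0.39, adjusted p 0.0424, edgeR). Hoxb5 had 1.97 and 1.03 CPM on HFD and 4.33, 5.25 and 6.13 CPM after the switch (1.79 ± 0.46, adjusted p 0.0462, edgeR), the largest rise. The groups of both genes did not overlap. Both calls were lost under GC correction and without any 1 of SW 412, SW 413 and SW 414. These fits called, in that order, 0 of 16319, 0 of 16510, 0 of 15716 and 593 of 16532 genes. With all libraries and no correction 2849 genes were called. In a limma-voom fit Hoxb5 missed the threshold (adjusted p 0.0526, limma-voom), where 1719 of 16319 genes were called. Without HFD 212 the changes were 1.82 for Hoxd9 and 2.40 for Hoxb5. That fit leaves 1 HFD library, so its calls are not given and the changes do not show that either call held. Markers of other tissues differed between these libraries. Testis markers summed to 610 and 677 CPM in SW 412 and SW 413, 26.5 CPM in SW 414, and 5.91 and 23.6 CPM in the HFD libraries. Markers of the epididymal epithelium summed to 161 CPM in HFD 411 and to 6.46 to 10.2 CPM in the other HFD and SW libraries, and red blood cell markers to 2192 CPM in HFD 212 and 25530 to 39890 CPM in the others. Their part in the Hox values was not tested.

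Other SVC members hinged on the 2 HFD libraries. Hoxa5 had 8.81 CPM in HFD 212 and 1.10 CPM in HFD 411, with 1.34, 2.64 and 1.97 CPM in the SW libraries between them (-1.30 ± 0.83, adjusted p 0.264, edgeR). Hoxd8 had 9.39 and 2.90 CPM on HFD and 2.78, 3.80 and 2.74 CPM after the switch. Without HFD 411, which leaves 1 HFD library, the changes were -2.12 for Hoxa5, -1.58 for Hoxd8 and 1.58 for Hoxd9. Calls of that fit are not given. The lowest value with all libraries was that of Hoxa9, -1.52 ± 0.86 (adjusted p 0.215, edgeR). Hoxa9 had 6 to 27 counts in the HFD libraries, 3 to 9 in the SW libraries and 3 in the LFD library. It passed the filter on low counts only through an HFD library, so that this value is not read as a difference. Hoxc6 had 7.13 and 2.55 CPM on HFD and 8.76, 12.2 and 10.4 CPM after the switch, and Hoxc9 had 3.31 and 2.97 CPM against 6.80, 6.08 and 5.59 CPM. Neither passed, with adjusted p 0.129 and 0.0835 (edgeR).

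With 1 library, LFD SVC allows no test. Its Hox values were high: 17 of the 27 members were above all other SVC libraries and none was below them, where 22.4% of genes with at least 10 counts in 3 libraries were above. The 27 members passed a looser filter, which 1 library can meet, so the count and the share are of unlike sets. Hoxa11, 1 of the 17, had 5 counts here and met that filter only through this library, so it is not read as high. Hoxc6 had 156 counts, 27.2 CPM (exact 95% interval 23.1 to 31.9, counting error only). Hoxc4 had 23.0 CPM (19.3 to 27.3) and Hoxb5 had 11.9 CPM (9.22 to 15.1). The same library had the highest sum of mesothelial markers, 857 CPM against 14.5 to 156 CPM in the other SVC libraries, and 15530 CPM of progenitor and fibroblast markers against 6949 to 10940 CPM. The part of these cells in its Hox values was not tested.

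Adipocytes and SVC differed in single Hox genes. In SW mice, 7 of 28 members were higher in adipocytes and 1 was lower (edgeR over 17441 genes), where 32.8% of all genes were higher and 35.6% lower, so that fewer members than genes passed. Hoxd8 led with a log2 difference of 2.56 ± 0.31 (adjusted p 9.04e-06, edgeR), followed by Hoxc8 (2.52 ± 0.25), Hoxd3 (2.45 ± 0.39), Hoxa9 (2.42 ± 0.59), Hoxb7 (1.74 ± 0.28) and Hoxa5 (1.55 ± 0.50). Hoxb2, a gene of the hindbrain end, was lower in adipocytes (-0.89 ± 0.31, adjusted p 0.0218, edgeR), and the lowest value was that of Hoxa11, -2.18 ± 1.28 (adjusted p 0.143, edgeR). GC correction raised the count to 17 higher and none lower, where 30.0% of all genes were higher, and took away the call of Hoxb2. The median GC content of tested members was 53.4%, against 49.7% for all genes tested in adipocytes.

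In HFD mice 3 of 28 members were higher in adipocytes and none was lower, where 12.9% of all genes were higher and 16.2% lower. They were Hoxc8 (1.87 ± 0.28, adjusted p 0.000563, edgeR), Hoxc5 (1.21 ± 0.29) and Hoxd8 (0.99 ± 0.33), and the lowest value was again that of Hoxa11 (-1.94 ± 1.20, adjusted p 0.24, edgeR). Without HFD 212 the count was 8, Hoxa5 among them at 1.50 ± 0.41, and the share of all genes that were higher was 18.8%. The difference of Hoxa5 was -1.33 without HFD 411, and each of these fits leaves 1 SVC library of HFD mice. Hoxc8 was higher in adipocytes in both diets, and in HFD mice also without either of these libraries.

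**Figure D5:**
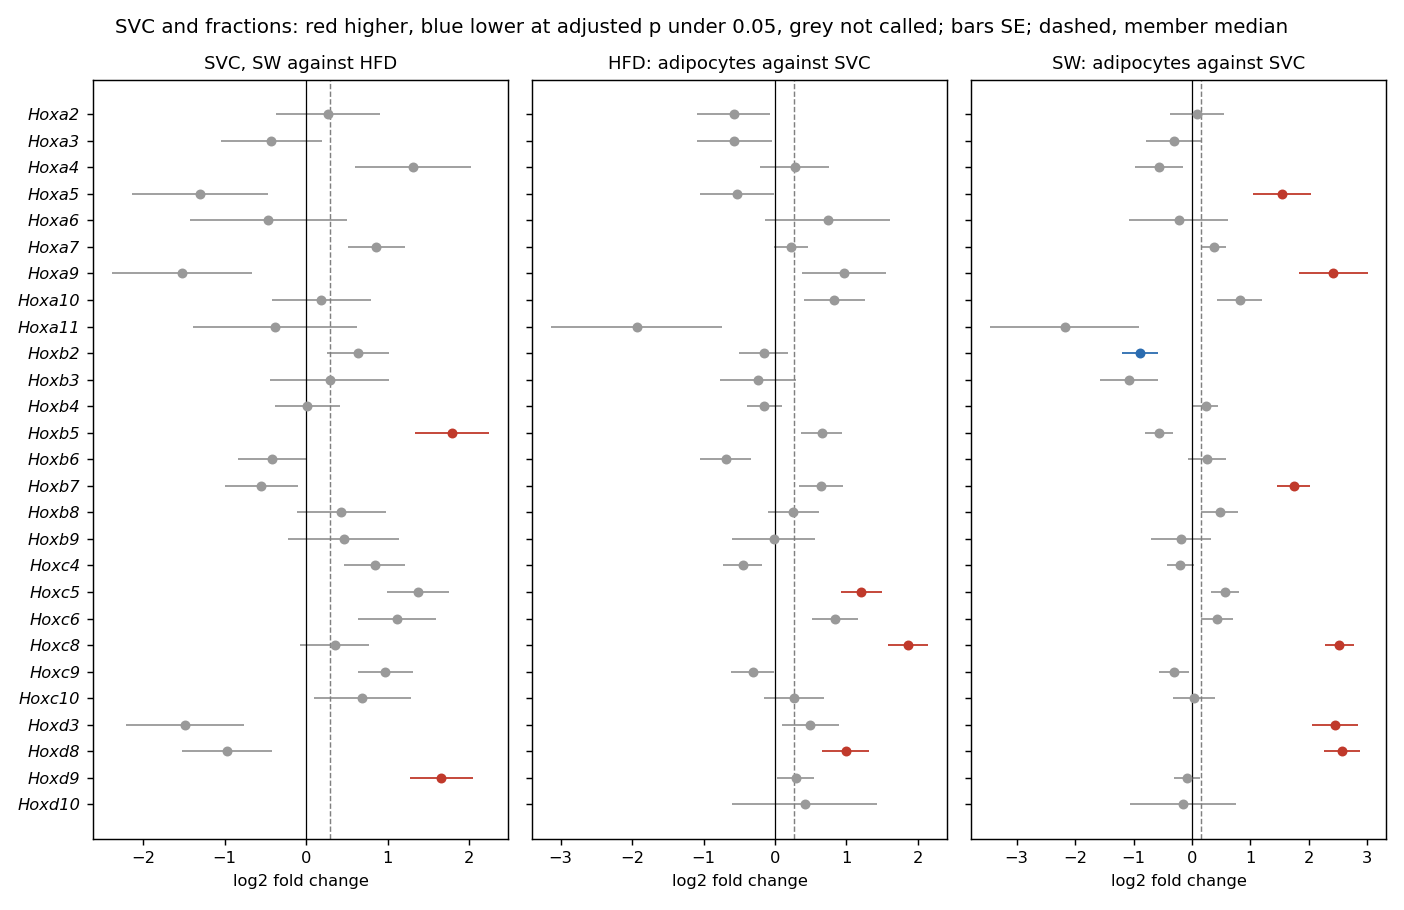
Log2 fold changes (x axis) with SE of the Hox genes reported here for SW against HFD in SVC and for adipocytes against SVC in HFD and in SW mice, with colours for calls at an adjusted p under 0.05 (edgeR) and a dashed line at the median of all tested members. Hoxb5 and Hoxd9 rose in SVC, and Hoxc8 and Hoxd8 are the genes higher in adipocytes in both diets.

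The change from HFD to SW was then compared between the fractions. It differed for 4 of 28 members, 3 with the larger value in adipocytes (Hoxa5, Hoxd3, Hoxd8) and 1 with the larger value in SVC (Hoxb5), where 15.7% and 11.4% of all genes did so. The medians were 0.08 over the members and 0.04 over all genes. For Hoxd3 the changes were 0.63 ± 0.22 in adipocytes and -1.48 ± 0.72 in SVC, and the difference in the joint fit of both fractions was 1.96 ± 0.55 (adjusted p 0.0195, edgeR). Without HFD 212 only Hoxb5 of these 4 still differed, and Hoxc6 did too.

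Counting limits some of these values. Of the 38 genes, 15 overlap another gene model, 8 on the same strand, such as Hoxc5 with Hoxc10, and 9 on the opposite strand. No source says whether strand was used in counting, so reads of overlapping or antisense genes could not be told apart, and all 15 are uncertain for that reason, Hoxa3, Hoxa4, Hoxa7, Hoxb2, Hoxb3, Hoxb5, Hoxc5, Hoxc10 and Hoxd3 among them. So is Hoxb3os.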

How the data were processed

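Polyadenylated RNA was sequenced on an Illumina instrument. According to the labels and methods, the authors aligned with Bowtie2 and obtained an estimated count for each gene from RSEM. The labels also list limma and the mm9 build, and versions are not given in the sources used here. These estimated counts were deposited as whole numbers without normalization. The labels hold 26 records for 18 libraries (8 of them with 2 runs) and do not say if runs were merged. Sample titles also mark each run as single or paired-end. Every adipocyte library has a paired-end run, while some SVC libraries of HFD and LFD mice have single runs only. Which columns these are cannot be told, and the part of read layout in the values was not tested. A column served as a replicate where its heading names a fraction and a diet (15 columns), and 3 columns of values matched no group and were left out. SW sample titles read low fat diet, but the treatment label gives the switch, which was followed. The study presents its replicates as biological, but no label ties a library to an animal, so p-values measure the spread between these libraries, which may be technical.

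Adipocytes (9 libraries), SVC (6) and both together (15) were fitted in edgeR 4.0.16 (R 4.3.3) by robust quasi-likelihood with TMM scaling, after filterByExpr at 10 counts. Benjamini-Hochberg adjusted p-values under 0.05 were called. CPM are TMM-scaled within a fraction, and changes are log2 values ± SE. The length-scaled level divides counts by the longest GENCODE M21 transcript, matched on gene identifiers. Coordinates are of GRCm38 and promoters are from RefSeq. Binomial intervals are exact. The steps were tested on simulated data with 2-fold and 4-fold changes set in. For HFD against LFD in adipocytes 63.6% and 88.7% of them were recovered. For SW against HFD in SVC 0.0% and 23.2% were, so few changes of this size could be called there. For adipocytes against SVC in SW mice 25.5% and 60.2% were. Of the genes called, 5.1%, 12.0% and 6.67% were false, in that order.

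The text prints every library for the 10 members of highest adipocyte level, with further examples, and the members with the largest rise or fall in each comparison. One member enters the counts, sums and medians, and its own values are not reported here. Members, gene lists and alternatives were chosen with earlier results of these data known. Alternatives were DESeq2 1.42.0, limma 3.58.1 (voom), other scalings and filters, GC and length corrections, thinning and leaving out each library.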

Additional observations from a re-analysis of the deposited data

Results flagged for a closer look

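For 4 Hox genes the change after the switch was unlike in adipocytes and SVC, by a test of the difference itself (edgeR, adjusted over 17441 genes, with 3 adipocyte libraries per diet, 2 SVC libraries of HFD and 3 of SW mice). Of 28 members, 3 had the larger value in adipocytes and 1 in SVC, where 15.7% and 11.4% of all genes did so. Thus no larger share of the members than of all genes passed. The difference, adipocytes minus SVC on the log2 scale, was 2.08 ± 0.71 for Hoxa5 (adjusted p 0.0455, edgeR), 1.96 ± 0.55 for Hoxd3 (adjusted p 0.0195, edgeR), 1.57 ± 0.44 for Hoxd8 (adjusted p 0.0181, edgeR) and -1.22 ± 0.38 for Hoxb5 (adjusted p 0.0294, edgeR). Without SVC library HFD 212 these were 0.04, 1.18, 0.58 and -1.67, and Hoxb5 alone of them passed. Without HFD 411, in which mitochondrial genes took 33.5% of the counts, they were 2.96, 2.51, 2.21 and -0.80, and Hoxb5 alone did not pass. The 2 libraries had Hoxa5 at 8.81 and 1.10 CPM, and their part in the difference beyond these values was not tested.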

How the results depend on the processing

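In adipocytes, 21 to 25 members passed for HFD against LFD in fits that kept all libraries. These fits covered every tool, filter, scaling and correction other than scaling to adipocyte markers, and called 6404 to 7838 genes of 12157 to 23589. With 1 library left out 22 to 23 members passed, where 5757 to 7250 genes of 14739 to 14931 were called. The 25, with only the groups compared, held 1 higher call, that of Hoxa6, which is not read as a difference. For SW against HFD the counts were 9 to 14 and 7 to 12, where 3405 to 5183 and 1522 to 4290 genes were called. The fit without SW 409 had 1 lower call, again of Hoxa6. For SW against LFD the counts were 11 to 16 and 5 to 11, where 2134 to 3056 and 1678 to 2176 genes were called. Scaling to adipocyte markers gave 3, 1 and 0, the 1 being lower, and turned the direction of Hoxa4 (0.11), Hoxa9 (0.12), Hoxb2 (0.084), Hoxb4 (0.23) and Hoxb9 (0.14) for HFD against LFD, of Hoxb4 (-0.22), Hoxb5 (-0.013), Hoxb8 (-0.026) and Hoxd8 (-0.014) for SW against HFD and of Hoxc8 (0.0029) for SW against LFD, none of them past the threshold. Upper-quartile scaling moved the median of all genes to -0.12 for HFD against LFD.

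For SVC, SW against HFD, the count was 0 under GC correction, where 0 of 16319 genes were called. It was 1 with voom, where 1719 genes were called, and 0 without any 1 of the SW libraries. Without HFD 411, which leaves 1 HFD library, the changes of Hoxa5 (-2.12) and Hoxd8 (-1.58) were negative and that of Hoxd9 (1.58) was positive. Between the fractions in SW mice GC correction gave 17, where 30.0% of all genes were higher, and turned Hoxb2 (0.15), Hoxc4 (0.76), Hoxc9 (0.76) and Hoxd9 (1.32). Leaving out 1 library gave 6 to 9, where 10690 to 11558 genes of 17008 to 17420 were called. In HFD mice the count was 1 with only the groups compared, 5 after thinning and 2 to 8 with 1 library left out, and Hoxa5 ran from -1.33 without HFD 411 to 1.50 without HFD 212. The difference of changes gave 2 of 26 with only the groups compared, where 3963 of 15949 genes passed. With 1 library left out, other than HFD 212 or HFD 411, it gave 2 to 4 of 28. In these fits 3459 to 4929 genes of 17008 to 17420 passed. The cause of these shifts was not tested. No paired analysis was possible because the column headings carry numbers that are in no label. SVC of LFD mice had 1 library and no test.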
